A study of Mus musculus with 66 samples.

Results

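The simple epithelial keratins are the keratins of single-layered epithelia, and the 5 genes Krt7, Krt8, Krt18, Krt19 and Krt20 were taken by symbol from the table of RNA values. The table held all 5 members among 8978 gene symbols, each as 1 RefSeq transcript (Krt7 NM_033073.3, Krt8 NM_031170.2, Krt18 NM_010664.2, Krt19 NM_008471.3 and Krt20 NM_023256.2), and all 5 passed the filter on low counts. The study compared mouse small intestinal organoids, self-organising epithelial cultures grown from the gut, in 3 media. ENR medium holds EGF, Noggin and R-Spondin and keeps stem cells and differentiated cells side by side. CV organoids, enriched for stem cells, received CHIR99021 (3 µM), a kinase inhibitor that activates Wnt signalling, and valproic acid (1 mM), an inhibitor of histone deacetylases, on top of ENR. EN organoids, depleted of stem cells, were grown without R-Spondin, for a shorter time than CV organoids spent in their medium. All cultures came from Lgr5 GFPDTR/+ organoids, which carry a reporter and toxin receptor at 1 copy of the stem cell gene Lgr5, and epithelial organoids hold no stroma or immune cells of the gut wall. RNA-seq and ATAC-seq (open chromatin) had 4 libraries per culture, and ChIPmentation of the transcription factor Hnf4g had 1 per culture. ChIPmentation of the histone marks H3K27ac, H3K4me3 and H3K27me3 had 3 per culture with values that could be assigned. The series lists further histone libraries, which were not analysed here. The sources do not say whether libraries of 1 culture came from separate cultures, so p-values measure the spread between these libraries, which may be technical.

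Keratins build the intermediate filaments of epithelial cells, which carry mechanical load between desmosomes, hemidesmosomes and the nucleus. A filament forms only from pairs of an acidic type I keratin (here Krt18, Krt19 and Krt20) and a basic type II keratin (Krt8 and Krt7). In the small intestine Krt8 is the main type II partner, Krt18 and Krt19 are expressed along the crypt and villus, Krt20 marks differentiated cells of the villus and surface, and Krt7 is typical of ducts and bladder and low in the intestine.

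RNA libraries held 5630977 to 8859757 expected counts in transcripts of genes, so that 3 counts, taken as the smallest amount that shows a transcript, stood for 0.361 to 0.642 counts per 1000000 counts (CPM). The lowest keratin value, Krt7 in EN replicate 3, rested on 456 counts and the highest, Krt8 in ENR replicate 4, on 32255. All 60 member values were whole numbers, although kallisto splits reads shared by several transcripts into fractions and 76.1% of all values in the table were whole. In EN against CV the markers followed the labels: 7 of 7 stem cell markers and 7 of 7 transcripts of proliferation genes were lower in EN than in CV, and 8 of 8 enterocyte markers were higher. The lowest and highest library sums of the enterocyte markers were 19820 and 20930 TPM (transcripts per 1000000 transcripts, a scale per transcript length) for CV, 10700 and 12370 for ENR, and 58720 and 65800 for EN. Those of the stem cell markers were 301.9 and 337.2, 931.4 and 1019, and 18.42 and 21.22. In CV against ENR the RNA of the stem cell markers was split. Of these 7 markers 4 were lower in CV, Olfm4 by far the most (10.9 CPM against 1229 in ENR). Lgr5, Axin2 and Smoc2 were lower by log2 differences of -0.52, -0.22 and -0.20. Cd44 and Sox9 were higher (2.02 and 0.35), and 1 did not pass. The paper bases the label of CV as enriched for stem cells on imaging of a GFP reporter of Lgr5 and on markers in protein and mRNA. Goblet (6 of 6), enteroendocrine (5 of 5) and tuft markers (4 of 4) were higher in EN than in CV as well, and 5 of 6 transcripts of Paneth cell genes were lower. The cell mixture therefore moved with every keratin difference between cultures, and in bulk samples fewer cells of a type and less RNA per cell cannot be told apart. The part of the mixture in the keratin results was not tested. In EN against CV, the agents added to CV, the R-Spondin left out of EN and the unequal time in medium cannot be told apart. The stratified epithelium keratins Krt5, Krt14 and Krt1 lay at or under 3 counts in every library, and the mesenchymal gene Col1a2 did too. Krt10, also listed for stratified epithelium, had 7 to 26 counts, and the mesenchymal gene Vim had 20 to 180. Library sums of the mesenchymal markers were 2.81 to 4.02 TPM in CV, 6.20 to 7.46 in ENR and 15.6 to 19.95 in EN. Those of the leukocyte markers were 4.87 to 5.71, 8.27 to 10.09 and 2.33 to 3.28, with 1 higher and 2 lower in EN than in CV.

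Of the 5 keratins, 2 rose from CV to EN (Krt20 and Krt19), 2 fell (Krt7 and Krt18) and Krt8 did not pass the test (edgeR's quasi-likelihood test, adjusted p under 0.01). In that comparison 76.4% of all 9288 transcripts tested passed, so a count of 4 in 5 is near the background. Against ENR, EN was called for 4 of 5 keratins beside 72.7% of all transcripts, with 1 rise and 3 falls. CV against ENR was called for 4 of 5 beside 60.0%, with 1 higher and 3 lower in CV. Of all transcripts 35.2% were called higher and 41.2% lower in EN than in CV, 35.5% and 37.2% in EN than in ENR, and 30.2% and 29.8% in CV than in ENR. Fold changes are given in CPM after TMM scaling, which assumes that most transcripts kept their share of the library, and the median of all transcripts was -0.08 (log2) in EN against CV on that scale. It was -0.34 in TPM, -0.49 on counts scaled to the spike-in RNA and +0.62 in the deposited copy numbers. Each keratin's change is therefore also given relative to that median, as a range over these 4 scalings. TMM and spike-in scaling apply a single factor per library to the same counts, and TPM nearly does. Relative to the median they are alike by construction, so the range is not support from 4 separate measures.

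**Figure D1:**
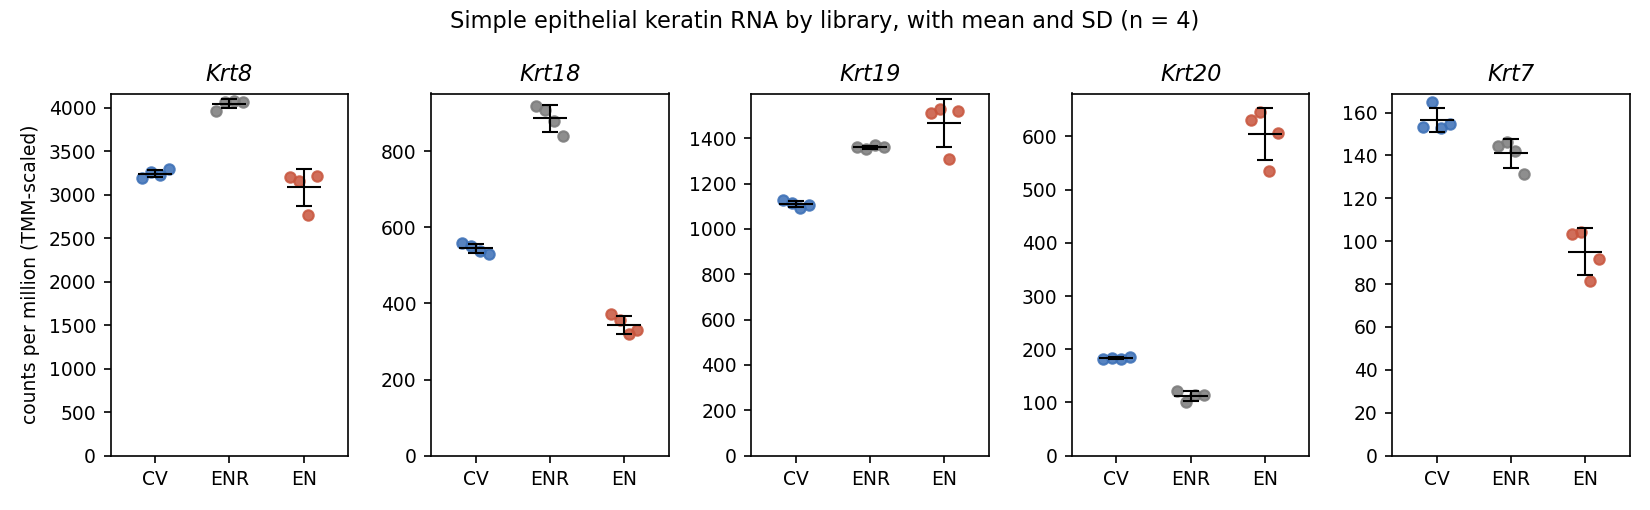
CPM of each keratin in the 12 RNA libraries on a linear axis from 0, with a point for each library and lines for the mean ± SD of the 4 libraries of CV, ENR and EN. Krt20 in EN (534 to 645 CPM) sits above every CV and ENR library, Krt18 falls into 3 separate levels with ENR highest, and Krt8 in CV and EN overlaps.

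Krt8, the type II keratin that pairs with every type I member, was the most abundant of the 5 in all cultures (mean TPM 3146 in CV, 3519 in ENR and 2397 in EN). It measured 3190, 3259, 3231 and 3290 CPM in the 4 CV libraries, 3966, 4066, 4081 and 4059 in ENR, and 3204, 3162, 2763 and 3209 in EN. ENR stood above all other libraries, while CV (3242 ± 42.6, SD, n = 4) and EN (3085 ± 215) overlapped, EN replicate 3 being the lowest. From ENR to EN Krt8 fell by 0.39 on the log2 scale (SE 0.042, adjusted p = 4.5e-07), and it was lower in CV than in ENR by a log2 difference of -0.32 (SE 0.0419, adjusted p = 7.14e-06). EN against CV gave -0.07 (SE 0.0419, adjusted p = 0.125), which was -0.02 without EN replicate 3, while in TPM it was -0.40 and passed. Relative to the median transcript the range over scalings was -0.53 to -0.38 in EN against ENR, -0.70 to -0.29 in CV against ENR and -0.05 to 0.24 in EN against CV, so only the last had no fixed sign. In copy numbers not set against that median, EN against ENR turned to +0.35 (adjusted p = 0.416), and the call of CV against ENR was lost in copy numbers (-0.50, adjusted p = 0.354) and on spike-in scaling (-0.41, adjusted p = 0.0298).

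Krt18, the type I keratin that in most simple epithelia is made together with Krt8, was highest in ENR and lowest in EN. It measured 558, 551, 538 and 530.0 CPM in CV, 918, 908, 880.2 and 839.9 in ENR, and 372, 356, 319 and 330.2 in EN. The 3 cultures did not overlap. EN was 2.57 times lower than ENR (log2 difference -1.36, SE 0.047, adjusted p = 4.53e-13) and 1.58 times lower than CV (-0.66, SE 0.0469, adjusted p = 2.7e-09), and CV was 1.63 times lower than ENR (-0.70, SE 0.0456, adjusted p = 2.91e-09). Relative to the median transcript the changes ran from -1.53 to -1.35, from -0.64 to -0.45 and from -1.02 to -0.68 over the 4 scalings. In raw copy numbers all 3 calls were lost, with EN against CV at +0.17 (adjusted p = 0.653), where the median transcript was +0.62, EN against ENR at -0.64 (adjusted p = 0.0649) and CV against ENR at -0.81 (adjusted p = 0.0508).

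The 2 genes lie on chromosome 15, 23874 bases apart in mm9, Krt8 on the minus strand (chr15:101827142-101834773, 9 exons) and Krt18 on the plus strand (chr15:101858647-101862457, 7 exons), so that their starts face each other. Their levels were correlated over the 12 libraries (Pearson r = 0.91 of log2 CPM, given as a description, since the libraries fall into 3 cultures), yet Krt18 did not keep a fixed proportion to Krt8. The ratio of Krt18 to Krt8 in TPM, which is per transcript length and so allows levels of different genes to be compared, was 0.224 ± 0.00743 in CV, 0.293 ± 0.0137 in ENR and 0.149 ± 0.00782 in EN (SD, n = 4). Promoters from RefSeq (GRCm38.p6), which were found for 4 of the 5 members (not for Krt19), are shown for this pair because the ratio of its members moved, read 5′ to 3′ on the gene's strand from 250 bases before to 30 bases after the start, with matches in capitals to 7 motifs (those of Hnf4, Cdx, Tcf/Lef, Gata, Klf/Sp, AP-1 and the TATA box) that were searched on both strands.
Krt8 promoter: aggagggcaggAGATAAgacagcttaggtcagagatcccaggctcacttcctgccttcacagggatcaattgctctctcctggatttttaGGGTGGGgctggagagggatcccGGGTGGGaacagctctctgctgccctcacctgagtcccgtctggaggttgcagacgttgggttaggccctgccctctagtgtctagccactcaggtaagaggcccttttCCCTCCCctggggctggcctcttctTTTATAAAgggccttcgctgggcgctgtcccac
Krt18 promoter: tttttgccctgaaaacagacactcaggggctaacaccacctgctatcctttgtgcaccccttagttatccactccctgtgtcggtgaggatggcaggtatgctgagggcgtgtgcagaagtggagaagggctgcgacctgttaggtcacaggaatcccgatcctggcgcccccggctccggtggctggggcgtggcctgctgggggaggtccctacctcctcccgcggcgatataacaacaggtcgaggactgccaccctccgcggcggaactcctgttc
The Krt8 promoter held 3 matches to the Klf/Sp motif GGGNGGG (48.1% of all 32851 promoters hold at least 1), a Gata match AGATAA (11.2%) and overlapping TATAAA matches on both strands near the start (13.6%). The Krt18 promoter held none of the 7 motifs, which says only that these letters are not in that window.

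Krt19, the smallest keratin, which lacks most of the tail domain, was the most abundant type I member of every culture in TPM (1440 in CV, 1585 in ENR and 1522 in EN). It measured 1129, 1112, 1093 and 1104 CPM in CV, 1360.5, 1352, 1368 and 1361 in ENR, and 1510, 1529, 1306 and 1520 in EN. CV was lowest, without overlap, and EN replicate 3 lay below all ENR libraries while the other 3 EN libraries lay above them. Krt19 rose 1.32-fold from CV to EN (log2 change 0.40, SE 0.0433, adjusted p = 4e-07), although it was 0.08 and did not pass in TPM (adjusted p = 0.142) and was -0.01 on spike-in scaling (adjusted p = 0.946). CV was lower than ENR by a log2 difference of -0.29 (SE 0.0432, adjusted p = 2.24e-05), a call that was lost in TPM (-0.14), on spike-in scaling (-0.39) and in copy numbers (-0.40). EN against ENR gave 0.11 (SE 0.0432, adjusted p = 0.0318) and did not pass; without EN replicate 3 it was 0.16 (adjusted p = 4.39e-05), and it turned to -0.06 in TPM and to -0.40 on spike-in scaling. Relative to the median transcript, Krt19 ran from 0.42 to 0.73 in EN against CV, from 0.06 to 0.12 in EN against ENR and from -0.61 to -0.27 in CV against ENR. Krt19 lies on the minus strand of chromosome 11 (chr11:100002124-100009979), 4861 bases from Krt15. Its longest coding transcript, with 6 exons, starts at position 100007434, inside that span.

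Krt20, the keratin of differentiated intestinal cells, had the largest change of the 5 in both comparisons with EN and kept its direction under all 4 scalings. It measured 182, 184, 182 and 185 CPM in CV, 122, 100.3, 113 and 115 in ENR, and 630.1, 645, 534 and 606 in EN. The 3 cultures did not overlap, and the lowest was ENR, not the stem cell-enriched CV. EN was 5.35 times as high as ENR (log2 change 2.42, SE 0.0621, adjusted p = 1.59e-14) and 3.30 times as high as CV (1.72, SE 0.0592, adjusted p = 3.82e-13), and CV was 1.62 times as high as ENR (0.70, SE 0.063, adjusted p = 1.22e-07). Relative to the median transcript the changes ran from 2.39 to 2.77, from 1.73 to 2.12 and from 0.71 to 0.72. All 8 enterocyte markers were higher in EN than in CV and in ENR, but between CV and ENR they were split, with 3 higher in CV, 4 lower and 1 that did not pass. The size of the rise from CV to EN, without its sign, lay at percentile 80.6 of all transcripts tested, and that from ENR to EN at percentile 92.5.

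Krt20 also lies on the minus strand of chromosome 11 (chr11:99289717-99299464, 8 exons), with Krt12 6144 bases away. Its promoter from RefSeq (GRCm38.p6) is shown because Krt20 moved most. It covers 250 bases before to 30 bases after the start, with motif matches in capitals.
Krt20 promoter: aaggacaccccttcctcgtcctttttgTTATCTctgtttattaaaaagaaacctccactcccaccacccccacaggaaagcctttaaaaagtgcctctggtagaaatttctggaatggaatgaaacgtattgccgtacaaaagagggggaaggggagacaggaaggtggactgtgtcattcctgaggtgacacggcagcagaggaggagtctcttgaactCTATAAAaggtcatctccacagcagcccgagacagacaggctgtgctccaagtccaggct
A TATAAA match began at position -29 from the start (13.6% of all promoters hold 1 in the window), a match to the Cdx motif TTTATNG on the other strand overlapped it (10.9%), and a Gata match on the other strand began at position -223 (11.2%). It held no Klf/Sp match, as the Krt18 promoter did not, while those of Krt8 and Krt7 did.

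Krt7, a type II keratin and a marker of ductal epithelium, was low but well above the limit of detection. It measured 153, 165, 153 and 155 CPM in CV, 144, 146, 142 and 131 in ENR, and 103, 104, 81.3 and 91.7 in EN. EN lay below all other libraries, and CV and ENR did not overlap although they were close. Krt7 was 1.65 times lower in EN than in CV (log2 difference -0.72, SE 0.0657, adjusted p = 5.92e-08) and 1.48 times lower than in ENR (-0.57, SE 0.0665, adjusted p = 1.21e-06). In copy numbers, in which the median transcript was higher in EN, these were +0.07 (adjusted p = 0.835) and +0.35 (adjusted p = 0.241), and relative to the median transcript they ran from -0.70 to -0.55 and from -0.59 to -0.54. CV against ENR gave 0.15 (SE 0.0627, adjusted p = 0.0443) and did not pass, but it was 0.30 and passed in TPM. Krt7 lies on the plus strand of chromosome 15 (chr15:101241474-101260744). Its longest coding transcript, with 9 exons, starts at position 101242833, inside that span. The gene lies 1177 bases from the hair keratin Krt83, which stayed at no more than 1.11 counts in any library.

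**Figure D2:**
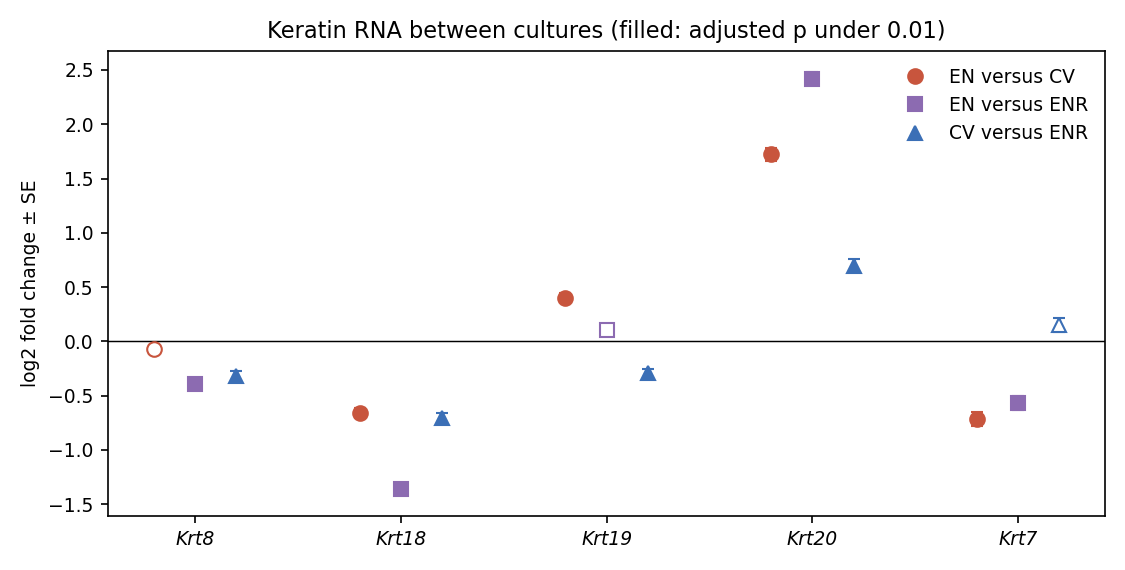
Fitted log2 fold changes of the 5 keratins in EN against CV, EN against ENR and CV against ENR, with SE as error bars; filled points passed the test at an adjusted p under 0.01 and open points did not. Krt20 is highest in both comparisons with EN (1.72 and 2.42) and Krt18 lowest in EN against ENR (-1.36). In copy numbers the sign turns for Krt7, Krt8 and Krt18 in EN against CV and for Krt7 and Krt8 in EN against ENR, and for Krt19 it turns on spike-in scaling in both comparisons with EN and in TPM in EN against ENR.

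In all, the 5 keratins summed to 5627 ± 78.1 TPM in CV, 6364 ± 55.0 in ENR and 4791 ± 365 in EN (SD, n = 4), with EN below the others. In copy numbers the order was another, with sums of 4590 ± 667, 6947 ± 3350 and 9473 ± 2990 and EN highest in the mean. Krt8 made up 55.9% ± 0.565 of the keratin RNA in CV, 55.3% ± 0.617 in ENR and 50.03% ± 0.402 in EN. Krt19 held 25.6%, 24.9% and 31.8% in CV, ENR and EN. Krt18 held 12.5%, 16.2% and 7.44%. Krt20 held 2.90%, 1.42% and 9.00%, and thus exceeded Krt18 in EN only. The ratio of Krt20 to Krt18 in TPM was 0.232 in CV, 0.0876 in ENR and 1.21 in EN. Krt7 held 3.08%, 2.21% and 1.76%.

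Since filaments pair type I with type II keratins, the TPM of Krt18, Krt19 and Krt20 were summed and divided by the sum of Krt7 and Krt8. The ratio was 0.719, 0.694, 0.690 and 0.680 in the CV libraries, 0.763, 0.736, 0.733 and 0.724 in ENR, and 0.930, 0.945, 0.932 and 0.916 in EN. Type II RNA was thus in excess in all 12 libraries, least in EN, and in TPM no library of 1 culture reached the range of another. In copy numbers EN (mean 0.860) was again above both, but CV (0.607 to 0.673) and ENR (0.611 to 0.690) overlapped. In EN replicate 3, where every keratin was lowest among the EN libraries, the ratio lay inside the range of the other EN libraries. The type I sum was 2308 ± 33.6 TPM in CV and 2309 ± 174 in EN, while the type II sum was 3319 ± 66.9 and 2481 ± 192. In copy numbers both sums were higher in EN, type I at 4364 ± 1310 against 1791 ± 272 and type II at 5109 ± 1680 against 2800 ± 408. No p is given for sums over the members. TPM corrects for length but not for other differences in how well a transcript is captured.

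**Figure D3:**
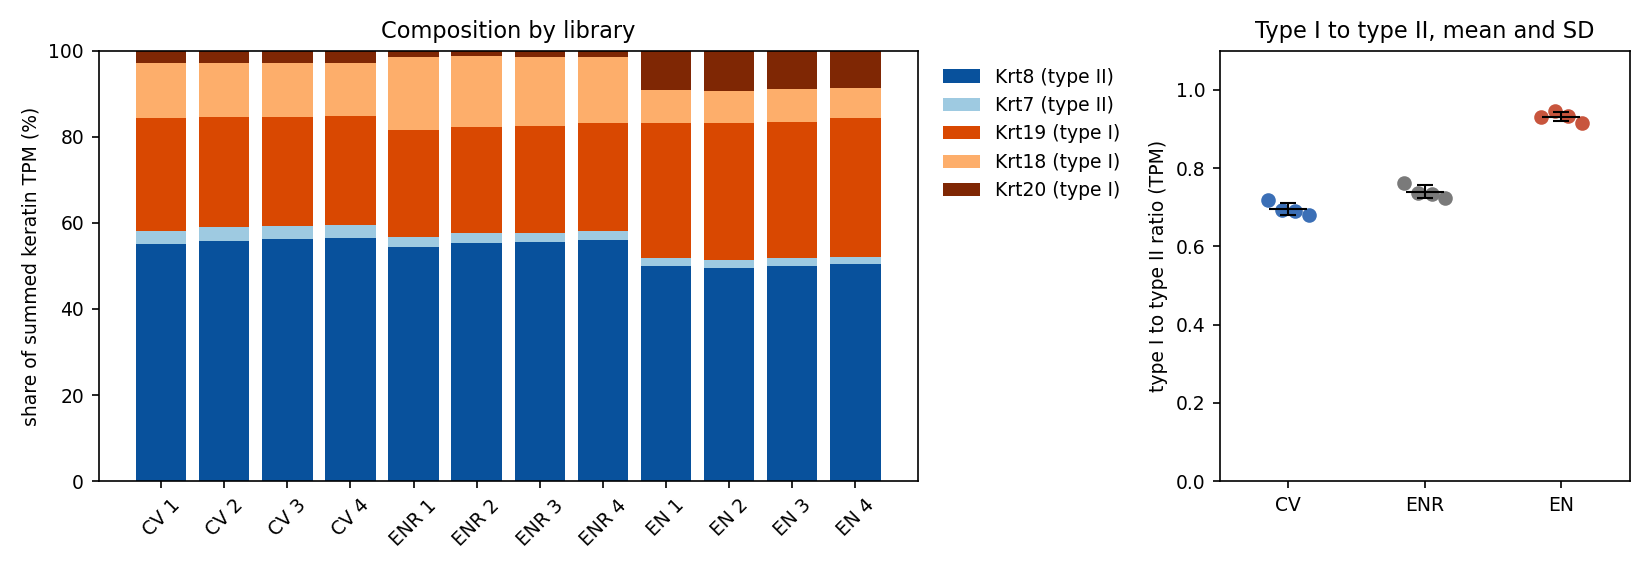
Left, stacked percent of summed keratin TPM held by each of the 5 keratins in each of the 12 libraries; right, the ratio of type I to type II keratin TPM per library with the mean ± SD of each culture. Krt8 holds 55.9%, 55.3% and 50.03% in CV, ENR and EN, and the ratio lies between 0.916 and 0.945 in EN, above all libraries of CV and ENR.

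Of 26 other keratins in the table, 21 never rose above 3 counts in any library, 4 of them with no count at all, and 10 passed the filter on low counts. Krt23, a type I keratin of glandular epithelia, was the highest at 56.7 CPM in CV, 55.5 in ENR and 40.9 in EN. It was lower in EN than in CV (log2 difference -0.47, adjusted p = 1.17e-05). The other 9 tested did not pass in that comparison, beside 76.4% of all transcripts that did. These 9 had at most 26 counts in any library, some no more than 1, so their lack of calls says little. No other keratin outside the 5 members reached more than 2.14 TPM in any library. The median log2 difference of the 10 was 0.01 in EN against CV beside -0.08 for all transcripts, but it rests mostly on transcripts near 0 counts.

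Linkers tie keratin filaments to desmosomes, hemidesmosomes and the other filament systems. Of 18 transcripts of 14 linker genes, 9 were higher in EN than in CV, 3 were lower and 6 did not pass, with a median log2 change of 0.55 beside -0.08 for all transcripts. The 12 called of 18 are not more than the 76.4% called of all transcripts (35.2% higher and 41.2% lower). Envoplakin (Evpl), a plakin of cell borders, had 5.95 CPM in CV, 19.6 in ENR and 39.4 in EN (2.72 in EN against CV, adjusted p = 1.51e-11). A transcript of plectin (Plec), which crosslinks keratins to hemidesmosomes and actin, had 158, 264 and 857 CPM (2.44, adjusted p = 1.15e-11), but the 3 Plec transcripts in the table share reads and their split is uncertain. Plakophilin 1 (Pkp1), a desmosomal plaque protein, was the largest fall, with 66.2, 55.8 and 5.38 CPM (-3.58, adjusted p = 1.24e-12), followed by a transcript of Macf1, a linker of actin and microtubules, with 145, 89.9 and 85.2 CPM (-0.77, adjusted p = 2.59e-10). The other transcripts of Macf1 had changes of 0.58 (adjusted p = 0.0151) and 0.78 (adjusted p = 0.264) in EN against CV. Neither passed, but the first did in EN against ENR (0.78, adjusted p = 0.00266). The split of reads between Macf1 transcripts is uncertain too. Against ENR the counts were also 9 higher and 3 lower in EN (median 0.36), and CV against ENR gave 4 higher and 7 lower (median -0.29). Of all transcripts 35.5% were higher and 37.2% lower in EN against ENR, and 30.2% and 29.8% in CV against ENR. The median of all transcripts was -0.01 in both.

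Of 13 other intermediate filament genes listed, 7 were in the table; 1 was higher in EN than in CV, 3 were lower and 3 did not pass (median -0.17 beside -0.08 for all transcripts, of which 76.4% were called). Vimentin (Vim), the filament of mesenchymal cells, rose from 2.96 CPM in CV to 7.96 in ENR and 23.3 in EN (2.97 in EN against CV, adjusted p = 1.31e-11), a level of 20 to 180 counts per library and far below any keratin of the 5. The other 3 mesenchymal markers in the table were near 0, and none of them passed in EN against CV, with Col1a1 at 0.850 CPM in CV, 0.145 in ENR and 0.179 in EN. Lamin B1 (Lmnb1), a filament of the nuclear lamina, fell from 69.6 CPM in CV to 16.8 in EN and had 109.5 in ENR (-2.03, adjusted p = 2.38e-11). Desmin (Des), the muscle filament, held 14 to 29 counts in each CV library, 0 in every ENR library and at most 1 in EN.

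Among 21 transcripts of 20 keratin partners and modifying enzymes, 6 were higher in EN than in CV, 9 were lower and 6 did not pass (median 0.04), near the shares of all transcripts (35.2% higher, 41.2% lower). Casp6, a protease that cuts type I keratins, rose from 27.7 CPM in CV to 35.4 in ENR and 118 in EN (2.09, adjusted p = 3.7e-13). Transglutaminase 2 (Tgm2), which crosslinks keratins in aggregates, went from 173 to 124 and 62.5 CPM (-1.47, adjusted p = 1.31e-14), and the 14-3-3 protein Ywhaq, of the family that binds phosphorylated Krt18, from 444 to 375 and 205 (-1.11, adjusted p = 7.41e-13). The counts in EN against ENR were 7 higher and 5 lower (median 0.06), and the same in CV against ENR (median 0.07). The shares of all transcripts were 35.5% higher and 37.2% lower in EN against ENR, and 30.2% and 29.8% in CV against ENR (median -0.01 in both).

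The transcripts most like each keratin over the 12 libraries were sought by Pearson r of log2 CPM. Hmga2 (r = 0.987), Cyb5r1 (0.981) and Naf1 (0.981) were most like Krt7, and Rad21 (0.988), Chd6 (0.985) and Cdc5l (0.984) most like Krt8. For Krt18 they were Rps3, Tfam and Hist1h1c (0.995, 0.994 and 0.994), for Krt19 Ddrgk1, Kat6a and Phf3 (0.990, 0.986 and 0.980) and for Krt20 Pgrmc2, Mdh2 and Hkdc1 (0.997, 0.996 and 0.996). All 12 points come from 3 cultures, so such values describe the order of the cultures. Within the 5 members, Krt18 and Krt20 ran opposite to each other (r = -0.96), and Krt8 and Krt19 had an r of 0.17.

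Chromatin was described over the 29 regions that touch a keratin gene or its surrounding 5 kb, 4 at Krt7, 7 at Krt8, 2 at Krt18, 10 at Krt19 and 6 at Krt20, with the mm9 positions of the deposited regions. Starts, exons and introns are those of the longest coding transcript of each gene, which for Krt7 and Krt19 starts inside the gene's span. Values are the normalised scores of the deposited table, rounded to whole numbers. Over the 3 cultures, 10 of the 29 regions (34.5%) passed the test for ATAC (limma's moderated F test, adjusted p under 0.01) beside 23.6% of all regions tested. These were 5 regions at Krt8, 2 at Krt7, 2 at Krt19 and 1 at Krt18, and none at Krt20. For H3K27ac 1 of 29 passed (3.45%, all regions 2.33%). None of 28 passed for H3K4me3 (all regions 1.56%; 11 at an unadjusted p under 0.05, and 0 by the same test on log2 scores). None of 29 passed for H3K27me3, the Polycomb mark (all regions 0.614%, and 0 of the 29 at an unadjusted p under 0.05). Its mean scores ran from 1.33 to 16. For H3K27me3 the authors extended the regions before scoring. These scores can therefore reach beyond the positions given, and neighbouring regions can share signal.

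**Figure D4:**
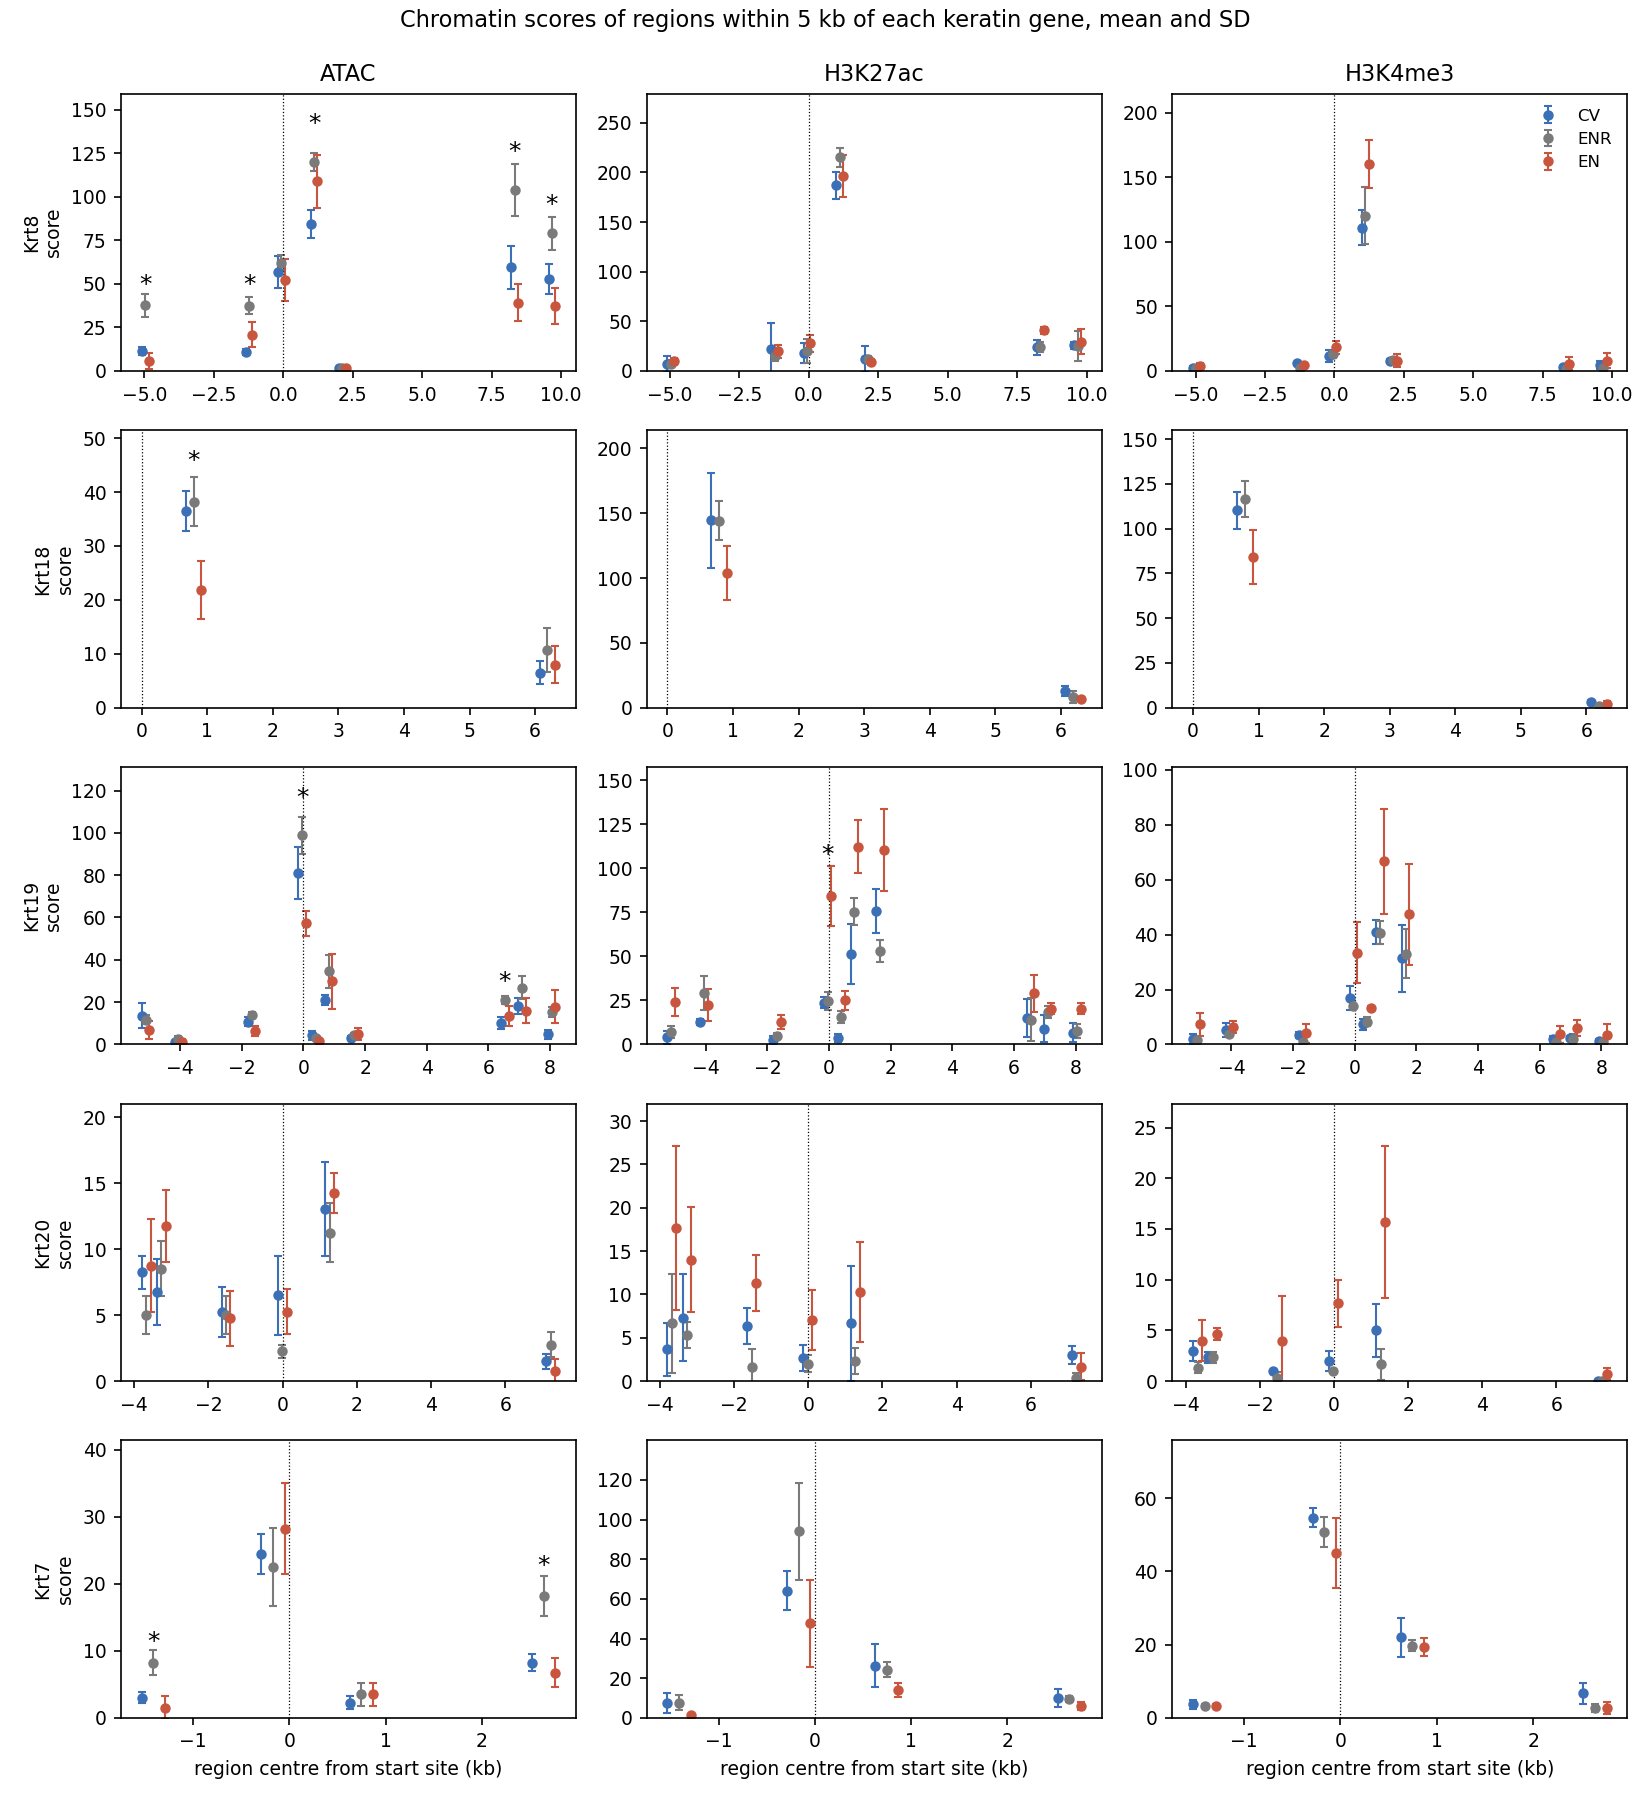
Mean ± SD of the normalised ATAC, H3K27ac and H3K4me3 scores per culture in the regions of each keratin gene, against the distance of the region's centre from the gene's start in kb along the gene's direction; cultures are set slightly apart sideways and an asterisk marks regions past the test. In ATAC, ENR is the highest culture in the 5 regions called at Krt8, and EN is the lowest at the start of Krt18 (21.8) and at that of Krt19 (57.3).

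At Krt8, the strongest region covered part of intron 1 and the adjoining part of exon 1, without the start (chr15:101832773-101834552, centred 1110 bases after the start). Its ATAC scores were 74, 94, 84 and 85 in CV, 119, 125, 113 and 122 in ENR, and 111, 122, 87 and 115 in EN (adjusted p = 0.00374). ENR was above every CV library, and EN replicate 3 fell among the CV libraries. The region right at the start (chr15:101834671-101834998) had 48, 59, 69 and 51 in CV, 66, 57, 61 and 65 in ENR, and 38, 51, 52 and 68 in EN and did not pass (adjusted p = 0.383). Beyond the gene's end, a region centred 8334 bases from the start (chr15:101826109-101826768) had 54, 66, 45 and 73 in CV, 97, 125, 90 and 104 in ENR, and 40, 32, 31 and 54 in EN (adjusted p = 0.00018). ENR stood apart there. A region upstream of the start (centred at -4970 bases) had means of 11.5 in CV, 37.8 in ENR and 5.75 in EN (adjusted p = 2.8e-05). H3K27ac over the exon 1 and intron 1 region was 191, 198 and 172 in CV, 217, 224 and 205 in ENR, and 186, 182 and 221 in EN, the highest acetylation at any of the 5 genes, and did not pass (adjusted p = 0.846).

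At Krt18, 1 region spanned the start and exons 1 to 3 (chr15:101858449-101860425). Its ATAC scores were 38, 39, 38 and 31 in CV, 43, 32, 39 and 39 in ENR, and 28, 21, 15 and 23 in EN (adjusted p = 0.00227). All EN libraries lay below those of CV and ENR, which overlapped each other, whereas in RNA Krt18 was lower in CV than in ENR. H3K27ac was 121, 126 and 187 in CV, 156, 150 and 127 in ENR, and 80, 113 and 119 in EN, and H3K4me3 was 99, 113 and 119, then 124, 120 and 105, and then 69, 85 and 99, with neither past the test (adjusted p = 0.385 and 0.18).

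At the start of Krt19 (chr11:100007191-100007768), ATAC and H3K27ac went opposite ways between CV and EN. ATAC scores were 74, 70, 82 and 98 in CV, 110, 100, 96 and 89 in ENR, and 56, 54, 53 and 66 in EN (adjusted p = 0.000692), with EN below all others. H3K27ac was 25, 26 and 20 in CV, 24, 20 and 30 in ENR, and 83, 68 and 102 in EN (23.7 ± 3.21, 24.7 ± 5.03 and 84.3 ± 17.0, SD, n = 3, adjusted p = 0.000527), with EN above all others. With each library left out in turn 1 of the 29 regions still passed, and in a fit without the trend of the spread on the mean, or in one with a replicate block, none did. H3K4me3 there was 12, 19 and 20, then 14, 14 and 14, and then 23, 32 and 45 (adjusted p = 0.107). In the next region, exon 1 and intron 1 centred 822 bases after the start, H3K27ac was 48, 36 and 70 in CV, 84, 72 and 70 in ENR, and 108, 100 and 129 in EN and missed the threshold (adjusted p = 0.0113). Beyond the gene's end a region centred 8052 bases from the start had ATAC scores of 7, 3, 3 and 6 in CV, 18, 15, 16 and 12 in ENR, and 25, 24, 10 and 12 in EN (adjusted p = 0.014), which passed on log2 scores (adjusted p = 0.000408).

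At Krt20 chromatin scores were lower than at the start regions of Krt8, Krt18 and Krt19, which are longer, although H3K4me3 at its start lay at percentile 74.1 of all regions by mean score and ATAC there at percentile 43.9. The region at the start (chr11:99299420-99299541) had ATAC scores of 3, 5, 9 and 9 in CV, 2, 2, 3 and 2 in ENR, and 7, 5, 3 and 6 in EN (adjusted p = 0.0752). H3K27ac was 4, 1 and 3, then 2, 1 and 3, and then 11, 5 and 5 (adjusted p = 0.364). H3K4me3, the mark of active starts, was 1, 3 and 2 in CV, 1, 1 and 1 in ENR, and 5, 9 and 9 in EN, so that all EN libraries were above all others, with an adjusted p of 0.0331 that missed the threshold. The order of the H3K4me3 means, 2.00 in CV, 1.00 in ENR and 7.67 in EN, was that of the RNA. In intron 1, H3K4me3 was 3, 8 and 4, then 0, 3 and 2, and then 8, 16 and 23 (adjusted p = 0.101). For a rounded score of a few units a step of 1 is a large part of the value.

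At Krt7 the start region (chr15:101242025-101243303) had ATAC scores of 20, 26, 26 and 26 in CV, 29, 22, 24 and 15 in ENR, and 26, 31, 36 and 20 in EN (adjusted p = 0.412), while Krt7 RNA was lowest in EN. Its H3K27ac was 72, 53 and 67, then 104, 66 and 112, and then 26, 47 and 70 (adjusted p = 0.0981). A region in intron 2 (chr15:101245339-101245612) did pass, with ATAC scores of 7, 10, 8 and 8 in CV, 22, 17, 19 and 15 in ENR, and 4, 9, 8 and 6 in EN (adjusted p = 0.000772). So did a region upstream of that start, at the outer edge of the annotated gene (centred at -1410 bases). Its ATAC scores were 4, 3, 3 and 2, then 7, 8, 7 and 11, and then 3, 0, 3 and 0 (adjusted p = 0.00162). ENR was the highest culture in both.

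Hnf4g is a nuclear receptor of enterocytes, and its own RNA was 122 CPM in CV, 369 in ENR and 1406 in EN. Its ChIPmentation had 1 library per culture with 84340 reads in regions in CV, 352600 in ENR and 1816497 in EN, so there was no replicate check and no test. In RPM (reads per 1000000 reads in regions), 3 reads stood for 35.6, 8.51 and 1.65. Intervals are exact 95% Poisson intervals and cover counting error only. In the 7 regions of Krt8 there were 3, 76 and 505 reads in CV, ENR and EN, or 35.6 (7.34 to 104), 215.5 (170 to 270) and 278 (254 to 303) RPM. In the 10 regions of Krt19 there were 2, 48 and 347 reads, or 23.7 (2.87 to 85.7), 136 (100 to 180) and 191 (171 to 212) RPM. Krt20 had 0, 6 and 77 reads, and the 77 in EN came to 42.4 RPM (33.5 to 53.0), while the interval of the 0 in CV reaches 43.7 RPM, so CV and EN could not be told apart at this depth. Krt18 had 4, 31 and 83 reads (47.4, 87.9 and 45.7 RPM) and Krt7 had 2, 2 and 40 (23.7, 5.67 and 22.0). RPM was thus higher in EN than in CV, with separate intervals, at Krt8 and Krt19, and the intervals overlapped at Krt18 and Krt7, where CV rested on 4 and 2 reads.

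**Figure D5:**
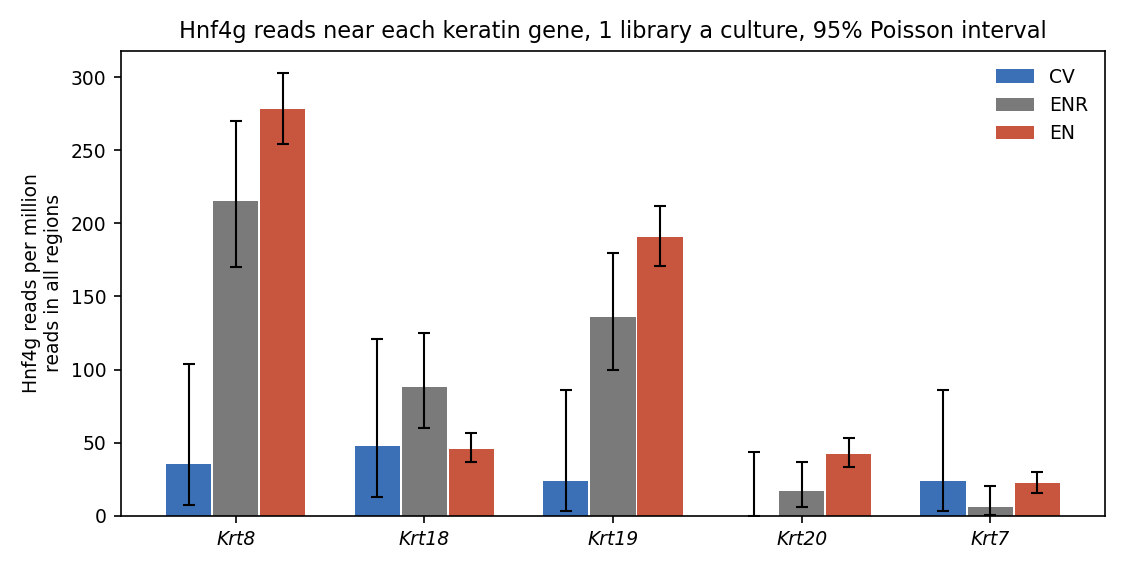
Hnf4g reads per 1000000 reads in regions, summed over the regions of each keratin gene, for the 1 library each of CV, ENR and EN, with exact 95% Poisson intervals. Krt8 and Krt19 reach 278 and 191 in EN, and the wide intervals of CV come from 0 to 4 reads per gene.

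Within these genes, Hnf4g reads in EN gathered in a few regions. The exon 1 and intron 1 region of Krt8 held 0 reads in CV, 52 in ENR and 419 in EN, or 231 RPM in EN (209 to 254), at percentile 99.9 of all regions. The exon 1 and intron 1 region of Krt19 held 0, 13 and 118 reads (percentile 96.7 in EN). A region beyond the end of Krt19 (chr11:100000208-100000471) held 0, 4 and 88 (percentile 95.0), the Krt18 start region 4, 31 and 76 (percentile 93.9), a region upstream of Krt20 (centred at -3270 bases) 0, 3 and 32 (percentile 85.2) and the Krt7 start region 0, 0 and 27 (percentile 83.1). Reads and percentiles were not corrected for length. These regions were 1780 bases long at Krt8, 592 and 264 at Krt19, 1977 at Krt18, 234 at Krt20 and 1279 at Krt7. The median over all regions was 220 bases. Longer regions can hold more reads, so the order by reads is not an order of read density. The central 250 bases of the regions of Krt8 and Krt19 with most reads are shown, since both held the Hnf4 motif CAAAGTC. They are read 5′ to 3′ on the minus strand, the strand of both genes, in mm9, with motif matches in capitals.
Krt8 chr15:101833538-101833787: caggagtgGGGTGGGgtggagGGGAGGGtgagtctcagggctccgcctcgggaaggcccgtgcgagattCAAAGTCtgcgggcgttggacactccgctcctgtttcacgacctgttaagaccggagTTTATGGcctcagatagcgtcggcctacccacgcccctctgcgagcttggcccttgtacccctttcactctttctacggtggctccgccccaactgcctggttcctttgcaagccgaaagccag
Krt19 chr11:100006488-100006737: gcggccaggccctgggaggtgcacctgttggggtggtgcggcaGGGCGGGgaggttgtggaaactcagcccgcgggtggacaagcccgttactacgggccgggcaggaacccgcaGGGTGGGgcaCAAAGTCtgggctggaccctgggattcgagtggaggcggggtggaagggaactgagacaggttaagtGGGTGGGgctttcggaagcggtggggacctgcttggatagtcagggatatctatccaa
Both windows lie in intron 1 of their gene. The CAAAGTC match began at base 70 of the Krt8 window and at base 126 of the Krt19 window. Such a match stood in the central 250 bases of 7.93% of the 94340 regions and in 4.44% of promoters. Other capitals mark the Klf/Sp motif, found 2 times in the Krt8 window and 3 times in the Krt19 window (28.4% of windows hold at least 1), and a Cdx match in the Krt8 window (14.4%). The other motifs searched were CTTTGAT of Tcf/Lef, held by 4.79% of windows and 3.73% of promoters, and the AP-1 motif, held by 15.7% and 7.81%, which is TGANTCA. Neither was found in the 4 promoters or in these windows. CAAAGTC was also found in a region upstream of Krt20 (chr11:99300925-99301059), with 8 Hnf4g reads in EN (percentile 61.7). It stood outside the central window of a region beyond the end of Krt8 (chr15:101826109-101826768), with 6 reads in EN (percentile 55.2). The other regions named above for their reads held no CAAAGTC. These were the region beyond the end of Krt19, the start regions of Krt18 and Krt7, and the Krt20 region centred at -3270 bases. A match is a run of letters and not a measured site.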

How the data were processed

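RNA values were deposited per RefSeq transcript as kallisto expected counts (version 0.43.0 in the submitters' notes; estimated counts, although the table is called normalized), as TPM and as mRNA copy numbers, a score that the authors scaled to ERCC spike-ins added to the purified RNA. Libraries were stranded (dUTP), and kallisto was run by the authors in the matching strand mode, with the first read reversed. For ATAC and histone marks the authors deposited normalized scores per region (BWA, Picard, MACS2 2.0, DESeq2, mm9 in the submitters' notes), rounded to whole numbers, and for Hnf4g raw counts of reads per region. Gene positions came from the mm9 gene annotation, and the deposited starts, which count from 0, were moved by 1.

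Groups and replicate numbers followed the labels. Expected counts were rounded, spike-ins (0.837 to 1.36% of counts) were left out, and 9288 of 9481 transcripts, those counted in 4 or more of the 12 libraries, were fitted in 1 model of culture with edgeR 4.0.16 (TMM, glmQLFit and glmQLFTest, common dispersion 0.00475) in R 4.3.3. P-values were adjusted by Benjamini-Hochberg over all transcripts and called under 0.01. Regions above 0 in at least 3 libraries were tested over the cultures with limma 3.58.1 (moderated F, trend), adjusted over all regions of a mark and called under 0.01. Member regions touch a gene or its surrounding 5 kb. Both tests were checked on simulated data.

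The 5 members and all lists were chosen with earlier results of these data known. Besides the members, the text names the 3 transcripts most like each member, the 2 largest rises and falls from CV to EN among the called transcripts of each list (Des, called on counts near 0, by its counts; 1 item is not reported here), and per gene the region nearest its start and those with the largest ATAC difference between EN and CV. Further regions, the other Macf1 transcripts, Col1a1, Col1a2, Krt10, Krt83, Olfm4, Lgr5, Axin2, Smoc2, Cd44, Sox9 and Hnf4g were named after their values were seen. Alternatives were DESeq2 1.42.0, limma on log2(TPM + 1) and log2(TPM + 5), spike-in scaling, limma on log2(copies + 1), other filters, one value per symbol, a replicate block, and each replicate left out. Of 66 samples, 12 had no column that could be assigned and were not analysed here. Most of these 12 were libraries of the histone marks.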

Additional observations from a re-analysis of the deposited data

Results flagged for a closer look

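In groups of 4 libraries, a value was looked at again where its gap to the nearest other library was a larger part of the group's range than Dixon's 95% limit allows. Of 60 such groups, 6 passed, and chance gives about 5% of groups. In RNA, EN replicate 3 was low for Krt19 (1306 CPM) and Krt8 (2763 CPM), and CV replicate 2 was high for Krt7 (165 CPM). In ATAC, CV replicate 1 was low at the start of Krt7 (a score of 20, where the other 3 libraries had 26), CV replicate 4 was low at the start of Krt18 (31), and ENR replicate 3 was high at the start of Krt20 (3, where the others had 2). The last differs by 1 step of a rounded score.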

How the results depend on the processing

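Of the 15 keratin comparisons (5 genes, 3 pairs of cultures), DESeq2 kept direction and side of the threshold in 14, a stricter filter, no filter, one value per symbol and the replicate block in 15 each, TPM with either pseudocount and spike-in scaling in 10 each, and copy numbers in 6. The cause was not tested. The sign turned for Krt19 in EN against ENR in TPM (-0.0618 with a pseudocount of 1 and -0.0616 with 5) and on spike-in scaling (-0.40), for Krt19 in EN against CV on spike-in scaling (-0.0135), and in copy numbers for Krt7 (0.0668), Krt8 (0.85) and Krt18 (0.17) in EN against CV and for Krt7 (0.35) and Krt8 (0.35) in EN against ENR. Calls were gained for Krt19 in EN against ENR with DESeq2 (0.14), for Krt8 in EN against CV in TPM (-0.40, or -0.39 with a pseudocount of 5) and on spike-in scaling (-0.49), and for Krt7 in CV against ENR in TPM (0.30 with either). Calls were lost for Krt19 in EN against CV in TPM (0.0761 and 0.0759) and in CV against ENR in TPM (-0.14 with either), on spike-in scaling (-0.39) and in copy numbers (-0.40), for Krt8 in CV against ENR on spike-in scaling (-0.41) and in copy numbers (-0.50), and for Krt18 in copy numbers in EN against ENR (-0.64) and CV against ENR (-0.81).

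Transcripts called higher and lower were 3267 and 3829 in EN against CV, against 2263 and 4976 in TPM, 1473 and 4292 on spike-in scaling and 4418 and 1258 in copy numbers. In EN against ENR they were 3301 and 3455, against 2677 and 4045, 1094 and 4275, and 5497 and 789. In CV against ENR they were 2804 and 2765 (5569 in all), against 3713 and 1895, 1039 and 1597 (2636), and 1409 and 461 (1870). On copy numbers the type I to type II ratio was 0.640 in CV, 0.647 in ENR and 0.860 in EN, with CV and ENR overlapping, and the shares of Krt7, Krt8, Krt18, Krt19 and Krt20 were 2.55%, 58.4%, 11.6%, 25.1% and 2.38% in CV and 1.50%, 59.2%, 14.6%, 23.8% and 0.909% in ENR, and in EN those of Krt7, Krt8, Krt18 and Krt20 were 1.32%, 52.5%, 6.45% and 7.95%.

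Same-numbered libraries were not paired in the main fits. In RNA their deviations from the culture means had a mean correlation of 0.0132 (lowest pair -0.0801), beside -0.00437 for other pairs between cultures. In the marks H3K27ac, H3K4me3 and H3K27me3 it was -0.00276, 0.0501 and -0.00781. In ATAC it was 0.17 (0.0695 to 0.46) beside -0.0557 for other pairs. Same-numbered ATAC libraries thus shared part of their deviations, and the source was not tested. ATAC calls stayed at 10 regions with a replicate block. With the replicate block, 7063, 6705 and 5457 transcripts were called in the 3 comparisons and no keratin call changed, but the H3K27ac call was lost (0 regions). The number of H3K27ac regions, 1 as reported, was 2 on log2 scores, 0 without the trend, 5 at an adjusted p of 0.05 and 2 within 10 kb, and for H3K4me3 it was 1 at 0.05.

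With each replicate left out in turn, the log2 differences ran in EN against CV from -0.76 to -0.65 (Krt7), -0.09 to -0.02 (Krt8), -0.70 to -0.63 (Krt18), 0.38 to 0.45 (Krt19) and 1.69 to 1.78 (Krt20). In EN against ENR they ran from -0.61 to -0.50, -0.41 to -0.34, -1.41 to -1.33, 0.088 to 0.16 and 2.37 to 2.47, and in CV against ENR from 0.12 to 0.17, -0.33 to -0.31, -0.73 to -0.69, -0.30 to -0.29 and 0.65 to 0.74. The only call that changed was Krt19 in EN against ENR without EN replicate 3. Calls in ATAC ran from 8 to 11 regions. The ratio, with replicates left out as chosen after seeing the data, ran from 0.688 to 0.701 in CV, 0.731 to 0.744 in ENR and 0.926 to 0.936 in EN. Depth limits the Hnf4g values of CV, where 3 reads stand for 35.6 RPM, and rounding limits low region scores.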
